A study of Mus musculus with 270 samples.

Results

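Kidney transcriptomes of mice aged 5 months (M) were compared with those of mice aged 3 M. The libraries were chosen by organ and age alone, which gave 7 libraries at 3 M and 9 at 5 M, 16 of the 45 kidney libraries and of the 270 libraries of the series. All mice were male, wild-type C57BL/6J, with no treatment or engineered allele, and each gave 1 kidney library. The series holds 6 organs of 45 such mice at 6 ages from 3 to 26 M, and this comparison asks which kidney genes differ between 2 young adult ages. The RNA came from bulk tissue, in which fewer cells of a type and less RNA per cell cannot be told apart.

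The kidney filters blood in the glomerulus, whose podocytes form the filtration barrier, and then recovers most of the filtrate along the nephron. The proximal tubule reabsorbs sugars, amino acids and phosphate and depends on mitochondrial oxidation, the thick ascending limb reabsorbs salt and secretes uromodulin, and the distal and collecting segments set the final balance of sodium, potassium and water. Many proximal tubule genes of the mouse differ between males and females through androgen action.

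Kidney markers were read in all 16 libraries, with summed normalized counts of 30682 to 90266 over the 10 markers of the early proximal tubule and 10677 to 39678 over the 10 markers of the thick ascending limb. Several libraries nevertheless stood apart. The 8 brain markers summed to 13901 and 9728 in replicates 2 and 3 of 3 M and to 42679 and 63784 in replicates 2 and 1 of 5 M, against 366 to 3607 in the other libraries, and *Gfap* was at 0 in all 16. In the libraries high in brain markers the early proximal tubule markers summed to 30682 to 62981, against 61041 to 90266 in the others. The thick ascending limb markers summed to 10677 to 27933 there, against 21490 to 39678. Skeletal muscle fibre markers summed to 580 to 1350 in the 4 libraries whose deposited names end in b (3 M replicates 1, 3 and 6 and 5 M replicate 3), against 10.8 to 106 in the rest. The same 4 libraries held 143 to 184 normalized counts over the lung epithelium markers, against 5.35 to 100.1, and the meaning of the b is not given in the sources used here. Replicate 7 of 3 M had 25519 genes above 0, against 19189 to 21007 in the other libraries. Recovered reads per library ranged from 5275285 to 14420629 at 3 M and from 5230524 to 13460212 at 5 M, a mean log2 difference of -0.14 (5 M minus 3 M, exact permutation test, two-sided, p = 0.602) and of 0.25 without the libraries with the b (exact permutation p = 0.135). The libraries with the b were the deepest, with 10963860 to 14420629 recovered reads, against 5230524 to 8915759 in the others. They made up 3 of 7 at 3 M and 1 of 9 at 5 M, so the groups differed in the b as well as in age.

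**Figure D1:**
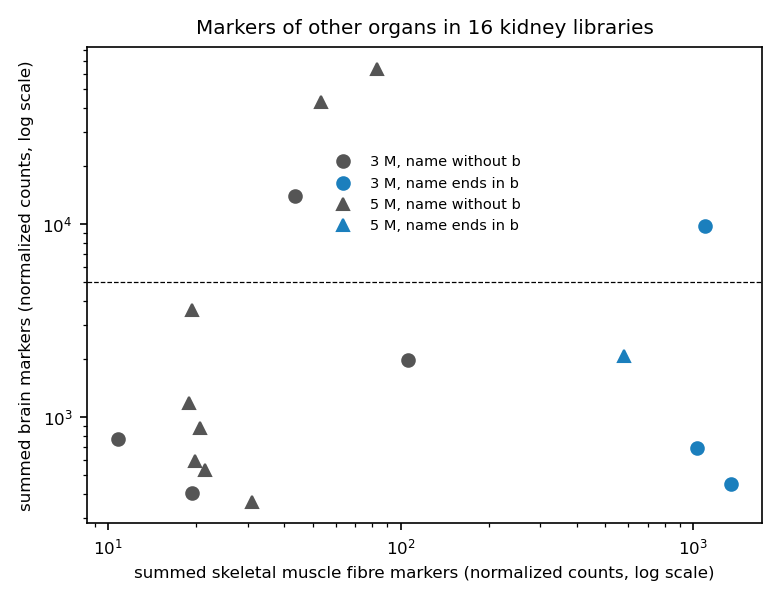
Summed normalized counts of 8 brain markers (vertical, log scale) against 8 skeletal muscle fibre markers (horizontal, log scale) in the 7 kidney libraries of 3 M (circles) and the 9 of 5 M (triangles). The dashed line marks 5000, above which 4 libraries lie, and the blue points are the 4 libraries whose names end in b, all at 580 or more on the horizontal axis.

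Of 16839 genes tested on log2(normalized count + 1) with limma over all 6 ages, 1942 differed between 5 and 3 M at a Benjamini-Hochberg adjusted p of at most 0.05, which is 11.5% of the genes. At 5 M 1009 genes were higher (5.99%) and 933 lower (5.54%). The median log2 difference was 0.71 among the genes higher at 5 M, -0.86 among those lower and 0.02 over all genes tested, and 217 and 326 genes respectively differed at least 2-fold. In 183 genes (1.09%) the values of the 7 and the 9 libraries did not overlap, 119 of them higher and 64 lower at 5 M.

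These counts changed with the libraries and ages that were fitted. Without the 4 libraries high in brain markers limma called 795 genes (4.72%) with all 6 ages fitted and 1923 with 3 and 5 M fitted alone, against 1942 and 1063 with all libraries. Only libraries of 3 and 5 M were left out. With all 6 ages fitted, the groups of 8, 14, 20 and 26 M kept 3, 1, 2 and 0 libraries over 5000 in brain markers. They also kept 2, 0, 0 and 1 libraries with the b. Adjusted p without either kind of library given below come from this fit of 6 ages. Without the 4 libraries with the b, which left 4 libraries at 3 M and 8 at 5 M, limma called 0 genes, with 2115 at an unadjusted p of at most 0.05, and edgeR called 237 and DESeq2 416 on recovered reads. No gene or marker list described below therefore held a limma call without the b libraries. In the means of those 12 libraries the median log2 difference was 0.53 for the genes called higher and -0.62 for those called lower, and among the libraries with the b alone, 1 at 5 M against 3 at 3 M, it was 0.99 and -1.17; the genes were chosen on libraries that include these, so the values are a description. Without both kinds of library, which left 3 libraries at 3 M and 6 at 5 M, limma called 1 gene with all 6 ages fitted. It called 1612 there with 3 and 5 M fitted alone. The part of the b and of the brain RNA in the calls was not tested beyond these values. With edgeR on all libraries the split of calls was 768 higher and 1468 lower, against 1009 and 933 with limma.

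Among called genes with a mean of at least 50 normalized counts and no clone or pseudogene name, the largest increase was in *Umod*, which encodes uromodulin, the main protein secreted by the thick ascending limb. Its values at 3 M were 70.3 at the lowest, 824 at the median and 1785 at the highest, and at 5 M 636.3, 3733 and 5040. The log2 difference was 2.38 ± 0.58 (SE, n = 7 and 9, limma adjusted p = 0.0069). All 7 libraries of 3 M lay below the median of 5 M, and the lowest value of 5 M came from replicate 1, the library with the most brain marker RNA. Without the b libraries the difference was 1.27 (adjusted p = 0.399). *Umod* was the 1 of 10 thick ascending limb markers that passed (10%, against 11.5% of all genes). *Slc12a1*, the salt transporter of this segment, had a log2 difference of 0.13 (limma adjusted p = 0.726).

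*Crbn*, the substrate receptor of a ubiquitin ligase, and *Ctnnb1*, which encodes beta-catenin, separated the ages completely. *Crbn* ranged from 46.7 to 145 normalized counts at 3 M (median 98.7) and from 235 to 550 at 5 M (median 379), a log2 difference of 2.07 ± 0.30 (limma adjusted p = 0.000127). *Ctnnb1* ranged from 103 to 212 at 3 M (median 140.4) and from 342.5 to 811 at 5 M (median 572), a log2 difference of 1.86 ± 0.31 (adjusted p = 0.000527). In both genes the lowest library of 5 M was above the highest of 3 M, and the difference without the b libraries was 1.63 and 1.59, with adjusted p of 0.0798 and 0.092. *Alg10b*, which acts in the assembly of the glycan for protein glycosylation, likewise did not overlap (36.2 to 98.2 at 3 M, 110.3 to 380.0 at 5 M, log2 difference 1.80 ± 0.35, adjusted p = 0.00145).

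The 10 largest increases also held 2 genes of lysosomal proteins, grouped here after their values were seen. *Ctsd*, which encodes the protease cathepsin D, had a median of 166 at 3 M (42.8 to 409) and of 622 at 5 M (179 to 789), a log2 difference of 1.90 ± 0.51 (adjusted p = 0.0123). *Lamp1*, a major lysosomal membrane protein, had a median of 894 at 3 M (130.3 to 1479) and of 2374 at 5 M (769 to 3478), a log2 difference of 1.71 ± 0.49 (adjusted p = 0.019). The groups overlapped in both genes, and without the b libraries the differences fell to 1.06 and 0.86 (adjusted p = 0.467 and 0.551). The largest increases also held *Pzp*, a protease inhibitor of the alpha-2-macroglobulin family (1.93 ± 0.52, adjusted p = 0.0135), *Twf1*, an actin-binding protein (1.67 ± 0.41, adjusted p = 0.00765), and *Idi1* of sterol synthesis.

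**Figure D2:**
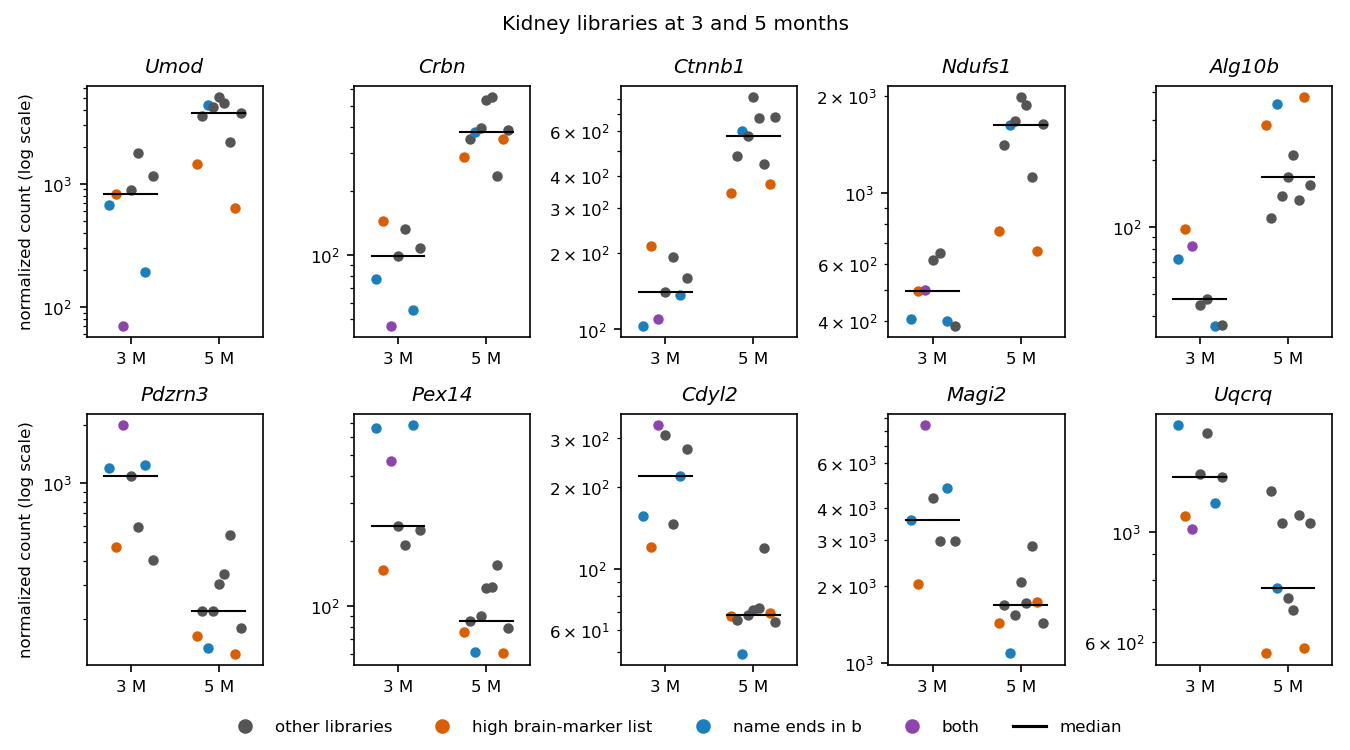
Normalized counts (log scale) of 10 genes in each kidney library at 3 M (7 points) and 5 M (9 points), with the median as a line and the libraries high in brain markers, with a name ending in b, or with both marked by colour. The upper row holds genes higher at 5 M and the lower row genes lower at 5 M; *Crbn*, *Ctnnb1*, *Ndufs1*, *Alg10b* and *Cdyl2* show no overlap between the ages.

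Among the same genes the largest decrease was in *Pdzrn3*, which encodes a ubiquitin ligase with PDZ domains. It ranged from 400.3 to 1993 normalized counts at 3 M (median 1084) and from 133 to 541 at 5 M (median 220), a log2 difference of -1.93 ± 0.44 (limma adjusted p = 0.00436). *Pex14*, part of the import machinery of peroxisomes, ranged from 147 to 684 at 3 M (median 234) and from 60.3 to 155 at 5 M (median 84.9), a log2 difference of -1.80 ± 0.33 (adjusted p = 0.00104). All 9 libraries of 5 M lay below the median of 3 M in both genes, with overlap at the edges. The 3 highest values of *Pex14* at 3 M were those of the b libraries, and without these the differences were -1.04 for *Pex14* and -1.3 for *Pdzrn3* (adjusted p = 0.231 and 0.293).

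*Cdyl2*, a chromodomain protein, was the only one of the 10 largest decreases with no overlap between the ages. Its values ran from 121 to 335 at 3 M (median 220) and from 49.4 to 119 at 5 M (median 68.1), a log2 difference of -1.56 ± 0.29 (limma adjusted p = 0.00106) and of -1.41 without the b libraries (adjusted p = 0.118). The other decreases of this rank were *Skint11* (-1.86), *Fbxl7*, a substrate receptor of a ubiquitin ligase (-1.66), *Med26*, a subunit of the Mediator complex (-1.66), the long noncoding RNA *D5Ertd615e* (-1.62), *Rp1* (-1.62), the transcription factor gene *Ikzf2* (-1.60) and *Grk5*, a kinase of G protein-coupled receptors (-1.56), with limma adjusted p between 0.00393 and 0.0234. *Skint11* belongs to a family of similar genes between which reads may be shared.

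The genes lower at 5 M had long spans at the median, and short genes were among them. In the GENCODE vM21 annotation of GRCm38, *Pdzrn3* covers chr6:101149609-101377897 on the minus strand, 228289 bases, *Fbxl7* covers chr15:26540459-26895580 on the minus strand, 355122 bases, and *Pex14* covers chr4:148960535-149099876 on the minus strand, 139342 bases. By contrast *Umod* covers chr7:119462711-119479282 on the minus strand, 16572 bases, and *Crbn* chr6:106780201-106800077 on the minus strand, 19877 bases. Over all called genes the median genomic span, introns included, was 95.8 kb for genes lower at 5 M, 24.5 kb for genes higher and 22.8 kb for genes not called. The exons had similar lengths in both directions (median 5.03 and 4.96 kb), and the median ratio of span to exon length was 18.1 in the genes lower at 5 M and 4.49 in those higher.

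Calls changed direction along the span. Of 3093 protein-coding genes of up to 10 kb, 136 were higher (4.4%) and 68 lower (2.2%) at 5 M, and of 4707 genes of 10 to 30 kb, 386 were higher and 107 lower. Of 1788 genes of 100 to 300 kb, 35 were higher and 263 lower (14.7%), and of 560 genes over 300 kb, 2 were higher and 154 lower (27.5%). The median log2 difference was 0.09 in the shortest class and -0.56 in the longest, and in the longest it was -0.81 without the libraries high in brain markers and -0.61 without the b libraries. Removing each library's trend over the span left 1556 calls, 862 higher and 694 lower, with 8 higher and 15 lower among the genes over 300 kb. The trend was fitted to these same values, so a loss of calls among long genes was built in. Values with the trend removed, here and below, are a description. The span classes were chosen after the values had been seen.

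**Figure D3:**
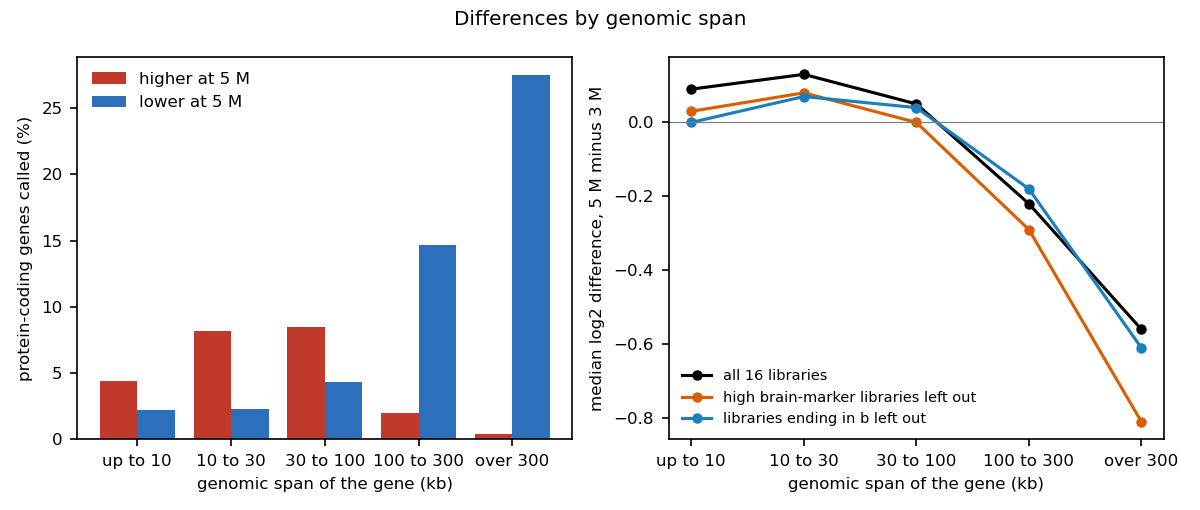
Left, percentage of protein-coding genes called higher (red) or lower (blue) at 5 M in 5 classes of genomic span in kb. Right, median log2 difference (5 M minus 3 M) in the same classes with all 16 libraries, without the 4 libraries high in brain markers and without the 4 libraries with a name ending in b; all 3 lines fall below 0 from 100 kb on, to between -0.56 and -0.81 in genes over 300 kb.

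Genes over 300 kb took 3.33 to 7.5% of the counts of a library at 3 M (median 4.11%) and 2.48 to 6.38% at 5 M (median 2.91%). The mean log2 share differed by -0.51 (5 M minus 3 M), and no test is given because the class was chosen after long genes had been seen to be lower in these libraries. The 2 highest shares of 5 M, 5.28 and 6.38%, were those of the libraries high in brain markers, and without such libraries the ranges were 3.33 to 6.27% and 2.48 to 3.54% (difference -0.65). With both kinds of library left out, 3 at 3 M and 6 at 5 M, the difference was -0.64, and without the b libraries alone it was -0.36. Of 6 nuclear-retained RNAs tested 1 was called (16.7%, against 11.5% of all genes), while 4 of the 6 had positive differences (list median 0.30). The called one was *Neat1*, whose median was 18114 normalized counts at 3 M and 11199 at 5 M (log2 difference -0.85 ± 0.23, limma adjusted p = 0.0132). Its difference was -0.52 without the libraries high in brain markers (adjusted p = 0.184) and -0.42 without the b libraries. The part of RNA processing or RNA quality in the share was not tested.

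Mitochondrial respiration had 5 of its 39 nuclear-encoded members called, 4 higher and 1 lower at 5 M (12.8%, against 11.5% of all genes), with a median log2 difference of 0.03. *Ndufs1*, the largest subunit of complex I, did not overlap between the ages (386 to 649 normalized counts at 3 M, 660 to 1978 at 5 M) and differed by 1.46 ± 0.30 (limma adjusted p = 0.00255). *Atp5b*, the catalytic subunit of ATP synthase, had medians of 6310 and 15750 (1.27 ± 0.35, adjusted p = 0.0144), and its partner *Atp5a1* had medians of 6309 and 13102 (1.09 ± 0.32, adjusted p = 0.0221). *Sdha* of complex II was the other gene higher at 5 M, by 0.93 (adjusted p = 0.0228). *Uqcrq*, a small subunit of complex III, was lower at 5 M, with a median of 1285 at 3 M and 769 at 5 M (-0.62 ± 0.14, adjusted p = 0.00455). With the libraries high in brain markers left out, 4 of the 39 were called. The 13 genes of the mitochondrial genome were listed at 0 in every kidney library and gave no values.

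Sterol synthesis had 5 of 20 tested members called by limma (25%, against 11.5% of all genes), all higher at 5 M. The median log2 difference was 0.25 over the list against 0.02 over all genes. With edgeR 4 were called higher and 1 lower, and so they were with limma after the trend over the span was removed. *Idi1*, the isoprenoid isomerase, ranged from 16.7 to 90.6 normalized counts at 3 M (median 69.9) and from 57.3 to 338 at 5 M (median 219), a log2 difference of 1.74 ± 0.43 (limma adjusted p = 0.00785). *Sc5d* did not overlap between the ages (562 to 907 and 999 to 1212; 0.51 ± 0.13, adjusted p = 0.00863). *Hsd17b7* differed by 0.69 ± 0.19 (adjusted p = 0.0175). Leaving out the libraries high in brain markers left 2 of the 20 called.

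Fatty acid oxidation had 3 of 24 members called (12.5%, against 11.5% of all genes), and 2 without the libraries high in brain markers. *Ppara*, the nuclear receptor that drives this pathway, fell from a median of 1367 (625.1 to 3069) to 667 (265 to 855), a log2 difference of -1.24 ± 0.30 (limma adjusted p = 0.00629). The mitochondrial carrier gene *Slc25a20* was also lower (-0.42 ± 0.12, adjusted p = 0.019), while *Hadha*, of the trifunctional protein, was higher (1.01 ± 0.30, adjusted p = 0.0238). In amino acid and glucose metabolism, 2 of 24 were called (8.33%), 1 in each direction, and *Bckdhb* of branched-chain amino acid breakdown was the lower one (-0.50 ± 0.16, adjusted p = 0.0303, and -0.35 with an adjusted p of 0.207 without the libraries high in brain markers).

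Of 23 genes for sodium, potassium and water handling, 4 were called by limma (17.4%, against 11.5% of all genes), all higher at 5 M, with a median of 0.27 over the list. With edgeR 4 were called too, but 2 of them higher and 2 lower. *Atp1b1*, a subunit of the sodium pump, had a median of 9534 normalized counts at 3 M and of 14685 at 5 M, a log2 difference of 0.78 ± 0.24 (limma adjusted p = 0.0296). The potassium channel gene *Kcnj10* differed by 0.65 ± 0.20 (adjusted p = 0.0268) and the water channel gene *Aqp4* by 0.79 ± 0.24 (adjusted p = 0.0275). Both are also transcribed in brain astrocytes, and the 2 highest values of each at 5 M were those of the libraries high in brain markers (727 and 1019 for *Kcnj10*, 477 and 660.4 for *Aqp4*). When the libraries high in brain markers were left out, 1 of the 23 was called, and the differences of these 3 genes were 0.65, 0.45 and 0.66 (adjusted p = 0.116, 0.17 and 0.135).

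Proximal tubule transporters had 2 of 30 members called (6.67%, below the 11.5% of all genes), and 1 without the libraries high in brain markers. *Slc3a1*, the heavy subunit of the cystine transporter, ranged from 535 to 1402 at 3 M (median 1152) and from 1318 to 2586 at 5 M (median 2309), a log2 difference of 1.06 ± 0.24 (limma adjusted p = 0.00416). *Slc2a2*, the basolateral glucose transporter, was lower (69.2 and 46.1 at the medians, -0.95 ± 0.27, adjusted p = 0.0181). None of the 10 markers of the early and the 8 of the late proximal tubule passed with limma, with 2 and 1 at an unadjusted p of at most 0.05, 0 with edgeR and 1 each with DESeq2. Of 11 genes of the male-biased kidney list 2 were called (18.2%), 1 in each direction. *Acsm3*, an acyl-CoA synthetase, was the higher one (234 and 774 at the medians, 1.53 ± 0.51, adjusted p = 0.0413, and 0.0504 without the libraries high in brain markers). *Slco1a1*, a male-biased organic anion transporter, had medians of 2265 and 3769 and did not pass (0.54 ± 0.46, adjusted p = 0.497).

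Of 10 podocyte markers tested 3 were called (30%, against 11.5% of all genes), all lower at 5 M. In the same list 6 of the 10 had positive differences and the median was 0.11. The called ones were *Magi2*, a scaffold of the filtration slit (3596 and 1686 at the medians, -1.19 ± 0.32, limma adjusted p = 0.0125), the transcription factor gene *Wt1* (-0.66 ± 0.20, adjusted p = 0.0271) and the phospholipase gene *Plce1* (-0.65 ± 0.22, adjusted p = 0.0452). *Nphs1*, which encodes nephrin of the slit itself, had a difference of 0.06 that did not pass (adjusted p = 0.921). *Magi2* spans 1477757 bases and *Plce1* 303922, and with the trend over the span removed their differences were -0.35 and -0.19 (adjusted p = 0.584 and 0.415), while that of *Wt1*, which spans 47088 bases, was -0.69 (adjusted p = 0.0354). Without the libraries high in brain markers the differences were -1.11, -0.51 and -0.79 (adjusted p = 0.0571, 0.105 and 0.0546). Of 8 intercalated cell markers *Aqp6* alone was called (0.66 ± 0.22, limma adjusted p = 0.0463, edgeR adjusted p = 0.0767), and 2 of the 8 were positive, with a list median of -0.31. Of 6 urothelium markers *Krt5* alone was called (1.77 ± 0.51, limma adjusted p = 0.0209, edgeR adjusted p = 0.0501, at most 21.1 normalized counts). Of 11 endothelial markers the receptor gene *Flt1* alone was called (-0.62 ± 0.18, limma adjusted p = 0.019, and 0.06 without the libraries high in brain markers). These single calls were 12.5% of the intercalated cell, 16.7% of the urothelium and 9.09% of the endothelial markers tested, beside 11.5% of all genes.

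Stress and oxygen genes moved in both directions. Of 14 heat shock chaperones 5 were called (35.7%): *Hsph1* (0.69 ± 0.18, limma adjusted p = 0.013), *Hspa4l* (0.66 ± 0.19, adjusted p = 0.0198) and *Chordc1* (0.62 ± 0.18, adjusted p = 0.0199) were higher at 5 M, and the co-chaperone gene *Bag3* (-0.56 ± 0.15, adjusted p = 0.0101) and *Hsp90aa1* (-0.75, adjusted p = 0.0339) were lower. The adjusted p of the 5 without the libraries high in brain markers ranged from 0.0636 to 0.143. Of 13 hypoxia-responsive genes 4 were called (30.8%), and 3 without these libraries. The glucose transporter gene *Slc2a1* had medians of 26.2 and 64.6 (1.3 ± 0.33, adjusted p = 0.00978), the glycolytic enzyme gene *Pgk1* 873 and 1702 (0.93 ± 0.24, adjusted p = 0.0106) and *Bnip3*, which acts in mitophagy, 61.2 and 134 (0.96 ± 0.29, adjusted p = 0.0278). *Ndrg1* was lower (-0.64 ± 0.20, adjusted p = 0.0303), and *Vegfa* had a difference of -0.01. Lists with 1 call each, below the 11.5% of all genes, were the antioxidant (4.76% of 21), endoplasmic reticulum stress (6.25% of 16) and clock genes (6.25% of 16). The called genes were *Keap1*, the sensor that holds back the antioxidant response (0.86 ± 0.23, adjusted p = 0.011), *Dnajb9* of the endoplasmic reticulum (0.75 ± 0.23, adjusted p = 0.0275) and the clock gene *Nr1d1* (0.93 ± 0.28, adjusted p = 0.0257). Without the libraries high in brain markers their adjusted p were 0.039, 0.16 and 0.0794, and with edgeR 0.0121, 0.0553 and 0.0793.

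The share of calls in the ribosomal and growth factor lists was near or below the 11.5% of all genes. All their limma calls were lower at 5 M. Of 32 cytoplasmic ribosomal protein genes 3 were called (9.38%), all lower at 5 M: *Rplp1* (560 and 330.2 at the medians, -0.71 ± 0.21, limma adjusted p = 0.0209), *Rpl9* (-0.55 ± 0.17, adjusted p = 0.0302) and *Rpl14* (-0.47 ± 0.16, adjusted p = 0.0485). Without the libraries high in brain markers their adjusted p ranged from 0.0813 to 0.214. Of the 32 cytoplasmic ribosomal genes 12 had positive differences, up to 1.6, and the list median was -0.18. Such genes have processed copies elsewhere in the genome with which reads can be shared. Of 20 mitochondrial ribosomal genes 1 was called (5%). This was *Mrps16* (-0.76 ± 0.23, limma adjusted p = 0.0234, and 0.145 without the libraries high in brain markers). Of 17 genes of the growth hormone axis 2 were called (11.8%). *Igf1r*, the receptor of insulin-like growth factor 1, was lower (5524 and 3902 at the medians, -0.52 ± 0.14, limma adjusted p = 0.0107). *Foxo1*, a transcription factor gene under insulin control, was lower too (-0.42 ± 0.14, adjusted p = 0.0484). *Igf1r* spans 280842 bases and differed by -0.08 with the trend over the span removed (adjusted p = 0.856). Without the libraries high in brain markers the adjusted p of *Igf1r* and *Foxo1* were 0.101 and 0.283.

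Of 11 MHC class I and 7 class II genes tested 1 each was called (9.09 and 14.3%, against 11.5% of all genes). *Nlrc5*, the transactivator of MHC class I, did not overlap between the ages (58.6 to 151 and 24.1 to 55.5; -1.20 ± 0.33, limma adjusted p = 0.0156). *Ciita*, that of class II, had medians of 25.7 and 9.7 (-1.53 ± 0.42, adjusted p = 0.0142). Without the libraries high in brain markers their adjusted p were 0.0921 and 0.0378. Of 15 injury genes 1 was called (6.67%). This was *Clu*, which encodes clusterin and rises in injured tubules (1026 and 2495 at the medians, 1.15 ± 0.37, limma adjusted p = 0.0357, and 0.144 without the libraries high in brain markers). *Havcr1*, the injury marker KIM-1, had medians of 26.2 and 40.7 and a difference of 0.65 ± 0.54 (adjusted p = 0.485), which was -0.42 without the b libraries.

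Of 91 tested genes of SenMyo, a list of genes tied to cellular senescence, 11 were called (12.1%, against 11.5% of all genes), 5 higher and 6 lower at 5 M, with a median log2 difference of 0.01, and 5 were called without the libraries high in brain markers. *Ctnnb1*, *Nap1l4*, a histone chaperone (0.50 ± 0.11, limma adjusted p = 0.00297), and *Il6st*, the signalling receptor shared by interleukin 6 cytokines (0.80 ± 0.19, adjusted p = 0.00629), were higher, and the growth factor gene *Bmp6* was lower (-0.75 ± 0.17, adjusted p = 0.00436). *Cdkn1a*, the cell cycle inhibitor p21, ranged from 23.8 to 140 at 3 M (median 51) and from 33.1 to 142 at 5 M (median 43.7) and did not differ detectably (0.02 ± 0.33, adjusted p = 0.975). *Kl*, which encodes the kidney hormone klotho, had medians of 4745 and 5491 (0.13 ± 0.22, adjusted p = 0.771), and *Ren1*, which encodes renin, had medians of 91 and 107 (0.34 ± 0.30, adjusted p = 0.515). In the list of klotho, vitamin D and calcium genes 1 of 13 was called (7.69%). This was the sodium-calcium exchanger gene *Slc8a1* (-1.0 ± 0.31, limma adjusted p = 0.0294), which spans 365273 bases. Its difference was -0.49 with the span trend removed, and its adjusted p was 0.171 without the libraries high in brain markers.

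No member was called by limma in 9 further lists with 135 genes tested, namely immediate early, glucocorticoid-responsive, cell cycle, extracellular matrix, female-biased, renin-angiotensin, interferon, complement and cell cycle arrest genes. In these lists 16 genes reached an unadjusted p of 0.05 or less, edgeR called 4 and DESeq2 called 7. The macrophage, T and NK cell, B and plasma cell and fibroblast markers also had no call with limma, and they had 2, 0, 1 and 1 genes at an unadjusted p of at most 0.05 and 0 calls with edgeR and with DESeq2.

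**Figure D4:**
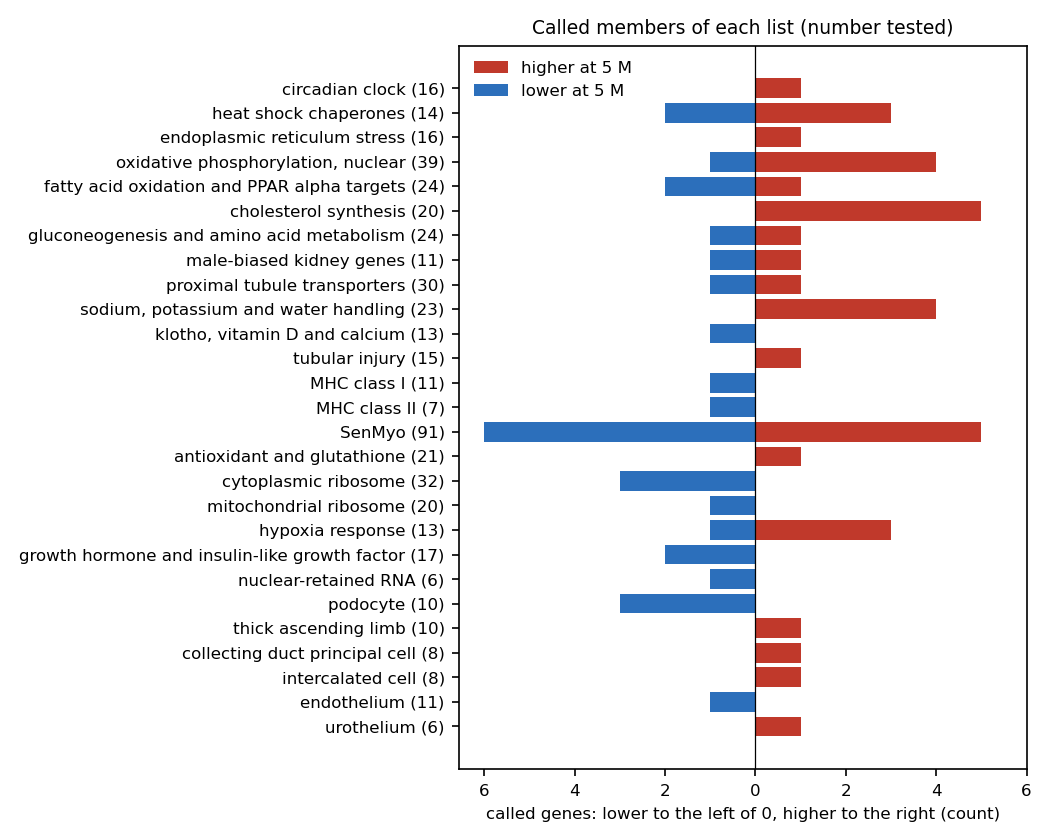
Number of genes called higher (red, to the right) or lower (blue, to the left) at 5 M in each gene or marker list with at least 1 call, with the number of genes tested in parentheses. With limma, sterol synthesis (5) and sodium, potassium and water handling (4) hold calls in the higher direction alone, and podocyte and cytoplasmic ribosome (3 each) in the lower direction alone. With edgeR the first 2 lists hold calls in both directions.

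The values of the called genes at the older ages are given beside those of 3 and 5 M; all share the group of 3 M and are a description. For each gene the median log2 value of an age group was compared with that of 3 M. The 1009 genes higher at 5 M had a median log2 difference of 0.64, 0.21, 0.72, 0.53 and 0.62 in the groups of 5, 8, 14, 20 and 26 M. The 933 genes lower at 5 M had medians of -0.79, -0.27, -0.76, -0.71 and -0.76 at the same ages. The median of 8 M lay between those of 3 and 5 M in 905 of the 1009 and 856 of the 933 genes, and in 7415 of the 14897 genes not called, and the 3 oldest groups lay near 5 M. The called genes were chosen for a gap between 3 and 5 M. A wide gap holds the 8 M median more readily, so part of the contrast with the genes not called was built in. *Ctnnb1* had medians of 140.4, 572, 218, 795, 711 and 535 normalized counts from 3 to 26 M, and *Pdzrn3* had medians of 1084, 220, 714, 252, 231 and 189. The median share of counts in genes over 300 kb was 4.11, 2.91, 4.13, 2.63, 3.43 and 2.84% from 3 to 26 M, so that 8 M was also near 3 M in this measure. Libraries with the b numbered 3, 1, 2, 0, 0 and 1, and libraries over 5000 in brain markers 2, 2, 3, 1, 2 and 0.

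**Figure D5:**
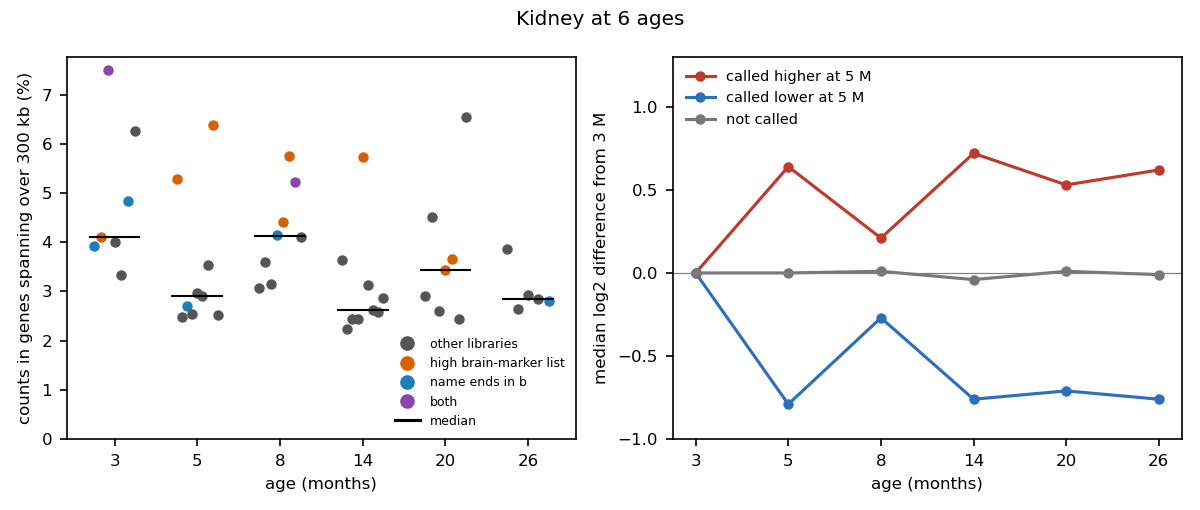
Left, share of counts (%) in genes spanning over 300 kb in each of the 45 kidney libraries by age in months, with the median as a line and library kinds by colour. Right, median log2 difference from 3 M for the 1009 genes called higher at 5 M, the 933 called lower and the genes not called; at 8 M the called genes are at 0.21 and -0.27, nearer to 3 M than at any other age.

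In the same mice heart, lung, skeletal muscle and testis gave no calls between 5 and 3 M in their own tables with limma (0% each of 15842 genes in heart, 21257 in lung, 17430 in skeletal muscle and 19613 in testis), with 506, 829, 345 and 320 genes at an unadjusted p of at most 0.05. The tables were scaled separately, so the difference between organs was not tested. Column names ending in b also occurred at 3 and 5 M in heart, more of them at 5 M, and in lung. Skeletal muscle and testis had none at these ages. No values without such columns are given for these organs. The log2 difference of *Crbn* was 2.07 in kidney, 0.20 in heart, 1.03 in lung, -0.05 in skeletal muscle and -0.03 in testis. That of *Ctnnb1* was 1.86 in kidney, -0.30 in heart, 0.70 in lung, 0.14 in skeletal muscle and -0.18 in testis, and that of *Pdzrn3* was -1.93, -0.16, -0.29, -0.37 and 0.08. Protein-coding genes over 300 kb had a median log2 difference of -0.56 in kidney, -0.03 in heart, 0.37 in lung, -0.19 in skeletal muscle and 0.06 in testis, beside 0.02, 0.01, 0.21, -0.02 and 0 over all genes of each organ.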

How the data were processed

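The deposited values are a normalized count, a signal per gene that the authors scaled with DESeq2 separately for each organ table. The labels name bcl2fastq 2.20, Trim Galore, HISAT2 2.1.0 on GRCm38 (mm10), SAMtools and R 3.5.1, and the study's methods describe single reads of poly(A) RNA libraries amplified by PCR without molecular identifiers, aligned with forward strand information and counted on Ensembl genes. Because of PCR, read counts are not independent molecules.

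Libraries were grouped by organ and age from the labels and columns were matched by name. Genes with at least 10 normalized counts in 5 or more of the 45 kidney columns were kept (16839 of 51810), and log2(value + 1) was fitted with limma 3.58.1 in R 4.3.3, with a trended prior, over 6 ages. P-values for 5 M minus 3 M were adjusted by Benjamini-Hochberg over all genes, with a threshold of 0.05. In every library 100% of values were whole multiples of what 1 read is worth in that library (tolerance 0.001), and the whole reads so recovered were tested with edgeR 4.0.16 and DESeq2 1.42.0 as alternatives. Of the 120 pairs of the 16 libraries 0 were identical, and the lowest chi-square per gene of a pair was 3.82. Replicates are separate mice.

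Genes named are the 10 largest increases and decreases among called genes with a mean of at least 50 normalized counts and no clone or pseudogene name, up to 4 called members of each list by p, and *Cdkn1a*, *Kl*, *Ren1*, *Umod*, *Havcr1* and *Slco1a1*; *Slc12a1*, *Sdha*, *Hsp90aa1*, *Vegfa* and *Nphs1* were chosen after their values were seen. The comparison, lists and tests were chosen with earlier results of these data known. Gene spans came from GENCODE vM21 on GRCm38, in which 16812 of the tested symbols were found. On simulated counts of 16839 genes for this comparison, limma called 27% of 100 genes changed 2-fold and 79% of 100 changed 4-fold, and 3.64% of its calls were unchanged genes. That share was 3.45% with edgeR and 12.2% with DESeq2. The simulated counts were independent draws with no b libraries, brain RNA or span trend. These shares therefore do not cover false calls from such effects. The liver table was not used here, and some genes that the rule names are not reported here.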

Additional observations from a re-analysis of the deposited data

Results flagged for a closer look

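The values of the 75 genes selected for naming were examined in each age group for 1 library far from the others, by the gap of the highest or lowest library to its nearest neighbour as a share of the group's range on the log2 scale. Of 150 gene groups 9 passed Dixon's 95% critical value, and chance alone gives about 1 in 20. At 3 M, replicate 3, a library with both a name ending in b and high brain markers, was the distant one in 5 of them: *Acsm3* (lowest at 83.1, next 203, share 0.68), *Slco1a1* (lowest at 779, next 1946, share 0.683), *Aqp6* (lowest at 54.1, next 135, share 0.599), *Keap1* (lowest at 17.7, next 33.2, share 0.577) and *Slc8a1* (highest at 6917, next about 2510, share 0.582). At 5 M, replicate 9 was the highest for *Fbxl7* (356 against 197, share 0.535) and *Cdyl2* (119 against 72.1, share 0.573). The b library of 5 M, replicate 3, was the highest for *Pgk1* (2934 against 1803, share 0.597), and replicate 1, the highest in brain markers, was the lowest for *Slco1a1* (683 against 1783, share 0.498).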

How the results depend on the processing

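The called genes, chosen on these libraries, had the same direction under every alternative that tested them, except 1 gene with both kinds of library left out and 13 with the trend over the span removed. Calls fell from 1942 (1009 higher, 933 lower) to 1063 (530 and 533) with 3 and 5 M fitted alone and to 971 (497 and 474) with the b as a term. Lower calls rose to 1468 with edgeR and 1517 with DESeq2. Leaving out 1 library in turn gave 814 to 2640 calls (455 to 1321 higher, 359 to 1319 lower), the fewest without 3 M replicate 3 and the most without 3 M replicate 2; without 3 M replicate 6 there were 1140 (598 and 542). Chosen after seeing the data were the following. Leaving out the libraries high in brain markers gave 795 calls (426 and 369), and 1923 (1042 and 881) with 3 and 5 M alone. Leaving out the b libraries gave 0 with limma, also with 3 and 5 M alone, 237 with edgeR (40 and 197) and 416 with DESeq2 (126 and 290). Leaving out both gave 1 call, higher (*Gm2981*, named after its value was seen), and with 3 and 5 M alone 1612 calls (1012 and 600). With the share of counts in long genes as a covariate there were 3000 calls (1879 higher). The depth difference of -0.14 was 0.25 without the b libraries (exact permutation p = 0.135) and from -0.25 to 0 with 1 library left out, the latter without 3 M replicate 3. *Cdkn1a* (0.02) was -0.17 with edgeR, -0.07 with DESeq2, -0.14 with quality weights, between -0.16 and 0.25 with 1 library left out, -0.01 without brain-marker libraries, 0 with the brain and muscle lists as covariates and -0.04 with the span trend removed, but 0.45 without the b libraries (0.54 there with edgeR and with DESeq2) and 0.42 with the long-gene covariate. *Havcr1* was -0.42 without the b libraries (-0.63 with edgeR and with DESeq2) and -0.43 without both, and with the long-gene covariate *Kl* was -0.32, *Ren1* -0.11 and *Slco1a1* -0.28. The cause of these changes was not tested. No paired analysis was possible because each mouse gave 1 kidney library at 1 age. Depth of 5230524 to 14420629 reads limits genes of few counts. The self-test above gives the share of 2-fold changes called in simulated counts of 7 and 9 libraries, without the b or brain RNA.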
